A study of Rattus norvegicus with 45 samples.

Results

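The response of the rat liver to the fungicide triadimefon was compared between 14 days and 24 h of exposure. The measure is a difference of differences: triadimefon minus control livers at 14 days, minus triadimefon minus control livers at 24 h. It uses 20 of the 45 arrays of the series, chosen by their titles: 5 from rats given triadimefon for 14 days, 5 from the controls of that time, 5 from rats given triadimefon for 24 h, and 5 from the 24-h controls. All rats were adult Sprague-Dawley males. They were dosed by gavage at 10 weeks of age, and no genetic change is stated. A dose of 175 mg/kg/day is stated for triadimefon in the series as a whole and not for single samples. What the control rats were given by gavage, and the time of day at which livers were taken, are not given in the sources used here. The labels conflict on numbers, since the series text speaks of 15 livers, a protocol of 3 rats a group, and the titles give 45 arrays with 5 a group. The titles were followed. Counted as 3 rats a group, 5 arrays would not be 5 separate rats, so arrays of a group may share a rat, and the p-values measure the spread between these arrays.

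Triadimefon is a triazole. Triazoles act on fungi by blocking lanosterol demethylation, and the rat counterpart of the enzyme they block, Cyp51, works in the cholesterol pathway. In rodent liver, triazoles are also known to switch on genes of drug metabolism through the nuclear receptors CAR and PXR, which respond to foreign compounds. The syntheses of sterols, bile acids and haem are each under feedback from their products, and activators of CAR are known to start a passing wave of hepatocyte growth.

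Total RNA of each liver was read on an Affymetrix rat genome array. The deposited values are scores on a log-type scale whose base is not stated. Each array is centred near 0, with a median between -0.01 and 0.03 on the 20 arrays. Differences are therefore given in score units, with no folds. The livers carried hepatocyte markers at the top of the scale: albumin (Alb) scored between 4.54 and 5.69, and the hepatocyte transcription factor Hnf4a between 2.48 and 3.01. Array 2 of the 24-h controls had a wider spread of scores than the others, with a 99th percentile of 3.52, against 2.77 to 3.15 on the other 19 arrays. Counts are therefore also given without it or after quantile normalization, which gives all arrays the same distribution. In bulk liver RNA, fewer cells of a type and less RNA per cell cannot be told apart.

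The triadimefon effect differed between the times for 3931 of 31042 probe sets by limma with Benjamini-Hochberg adjustment at an adjusted p of 0.05. It was higher at 14 days for 2456 of them (7.91%) and lower for 1475 (4.75%). "Higher" means that triadimefon minus control was more positive, or less negative, at 14 days than at 24 h. With 1 probe set per gene, 1612 of 14218 genes (11.3%) were higher and 617 (4.34%) lower. The excess of higher calls depended on how arrays were scaled. After quantile normalization 1790 probe sets were higher and 1759 lower. In genes these were 1025 higher (7.21%) and 908 lower (6.39%), and the median over all genes was -0.00538, against 0.0192 in the deposited scores. With arrays shifted to the same median 3644 probe sets were higher and 1085 lower. Without array 2 of the 24-h controls, 2253 probe sets were called, 1420 of them higher.

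The effect at each time shows where these calls lie. At 14 days, 781 genes (5.49%) were higher and 389 (2.74%) lower in triadimefon than in control livers, and 848 and 766 after quantile normalization. The 2076 probe sets called at 14 days became 1014 without array 2 of the 14-day controls, and 1337, 1164 and 1370 without array 1, 4 or 5 of the triadimefon livers. At 24 h, 370 genes (2.6%) were higher and 1182 (8.31%) lower, and 838 and 901 after quantile normalization. With only these groups in the fit, 70 genes were higher and 233 lower. The 2478 probe sets called at 24 h became 491 in that fit, 1159 without array 2 of the 24-h controls and 1484 without array 1 of the triadimefon livers. Between triadimefon livers at 14 days and at 24 h, 883 genes (6.21%) were higher and 492 (3.46%) lower, and 1092 and 956 after quantile normalization, and 1555 of 2360 probe sets were called without array 1 of those at 24 h. Between control livers at 14 days and at 24 h, 6 genes (0.0422%) were higher and 41 (0.288%) lower. The control count depended on single arrays: 74 probe sets were called with all arrays, 1170 without array 4 of the 24-h controls, 769 without their array 1, and 0 without their array 2 or without array 4 or 5 of the 14-day controls.

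The 2229 called genes fell into patterns. For 614 genes the effect faded from lower: they were called lower than control at 24 h and were closer to control at 14 days. Another 133 faded from higher. For 391 genes the effect built up, being called higher at 14 days with the larger difference there, and 187 built down. The direction turned for 149 genes, of which 130 were lower at 24 h and higher at 14 days. The other 755 had no called difference at the time of their larger difference. The faded and turned genes were fewest without array 2 of the 24-h controls, at 280 and 53, and most without array 4 of the same group, at 1124 and 198. The built genes were fewest without array 2 of the 14-day controls, at 284.

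**Figure D1:**
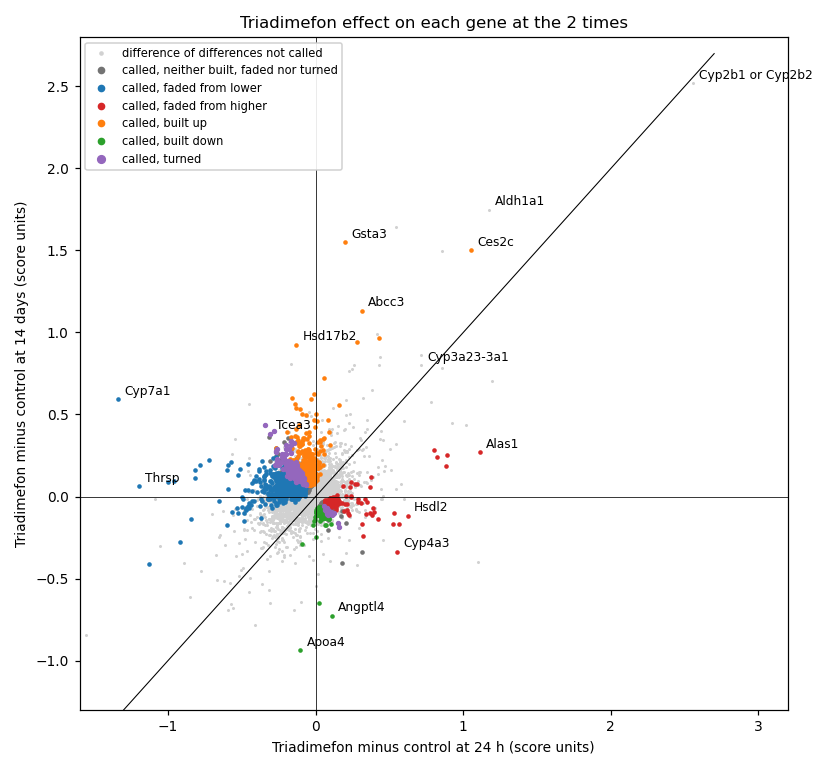
Each point is 1 of 14218 genes, with triadimefon minus control at 14 days on the y axis and at 24 h on the x axis, both in score units, and colours give the pattern of the called genes. Gsta3 lies high near the middle with its 14-day difference of 1.55, Cyp7a1 lies far to the left with its 24-h difference of -1.34, and the probe set of Cyp2b1 or Cyp2b2 lies close to the line of equal effects.

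Bile acid synthesis held the highest value of all called genes. Cyp7a1, the rate-limiting enzyme of bile acid synthesis from cholesterol, was lower with triadimefon at 24 h and was not called at 14 days. Cyp8b1, which makes the precursor of cholic acid, had the same pattern. Nr0b2, which encodes the repressor SHP of both genes, was called at neither time nor in the difference of differences (0.21 ± 0.32 SE, limma adjusted p 0.686).

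Cyp7a1 scored 2.57, 2.00, 1.47, 1.79 and 1.51 in triadimefon livers at 14 days, against 0.56, 1.87, 1.77, 0.71 and 1.46 in controls. At 24 h Cyp7a1 scored 0.39, 0.20, 1.29, 1.08 and 1.40 in triadimefon livers, against 2.19, 2.69, 2.13, 2.25 and 1.80 in controls. Every treated array lay below every control at 24 h, while the groups overlapped at 14 days, where the controls spread widely. The difference was 0.59 ± 0.27 (SE, n = 5 a group, limma adjusted p 0.173) at 14 days and -1.34 ± 0.27 (adjusted p 0.00141) at 24 h. The difference of differences was 1.93 ± 0.38 (limma adjusted p 0.00126). Controls at 14 days minus controls at 24 h gave -0.94 ± 0.27 for Cyp7a1, which did not pass (limma adjusted p 0.0778) but enters that value.

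Cyp8b1 scored 2.55, 2.31, 2.17, 2.34 and 2.43 in triadimefon livers at 14 days, against 2.32, 2.25, 2.29, 1.95 and 2.55 in controls. At 24 h Cyp8b1 scored 1.09, 1.24, 1.48, 1.35 and 2.18 in triadimefon livers, against 2.21, 3.03, 2.41, 2.29 and 2.41 in controls. The groups did not overlap at 24 h, although the highest treated array nearly reached the lowest control, and they overlapped at 14 days. The difference of differences was 1.09 ± 0.21 (limma adjusted p 0.00107), with a difference between the control groups of -0.20 ± 0.15 (adjusted p 0.471). Of 23 measured genes of bile acid synthesis and transport and sterol export, 3 (13%, near the 11.3% over all genes) were called higher and 0 lower in the difference of differences, and 2 and 1 after quantile normalization. Their median was 0.145, against 0.0192 over all genes, and 0.0471 after quantile normalization, against -0.00538. The third called gene was Nr5a2, an activator of Cyp7a1 (0.27 ± 0.062, limma adjusted p 0.00463), which did not pass after quantile normalization (adjusted p 0.0823).

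Genes of cholesterol synthesis were higher with triadimefon at 24 h, and few of them were called higher at 14 days. The median effect of their list was smaller at 14 days but still above that of all genes. It was 0.13 at 14 days and 0.293 at 24 h, against 0.00188 and -0.0109 over all genes. After quantile normalization the list median at 14 days was 0.0883. Of the 22 genes measured in the sterol synthesis and uptake list, 2 (9.09%, against 5.49% of all genes) were called higher at 14 days. At 24 h 14 (63.6%, against 2.6%) were higher. After quantile normalization 1 was higher and 2 lower at 14 days, and 17 were higher and 0 lower at 24 h. In the difference of differences 5 (22.7%, against 4.34% of all genes) were called lower and 0 higher, with a median of -0.211, or -0.346 after quantile normalization. The count of lower calls was 13 (59.1%, against 6.39%) after quantile normalization, 10 without array 5 of the triadimefon livers at 24 h, and 3 without their array 1 or without array 5 of the 24-h controls. The called genes were Insig2, which holds the SREBP precursor in the endoplasmic reticulum, Idi1, which makes the second isoprenoid building block, Sqle, the squalene epoxidase, Msmo1, which takes part in removing methyl groups from the sterol ring, and Srebf2. Srebf2 encodes SREBP-2, the transcription factor that drives the pathway, and of these 5 it alone was chosen for description after its values were seen.

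Promoters of a sterol gene and of the pathway's regulator are shown because they carry short motifs. The sterol response motif is tied to this pathway, while CCAAT boxes stand in promoters of many kinds. The promoters are RefSeq sequences, 5′ to 3′ on the gene's strand, and run across the annotated start. In Srebf2 the capitals mark a sterol response motif (TCACCCCAC or TCACCCCAT, either strand), and in Idi1 they mark CCAAT boxes (CCAATC or CCAATG, either strand).
Srebf2 (GRCr8 chr7:115543057-115543356, plus strand): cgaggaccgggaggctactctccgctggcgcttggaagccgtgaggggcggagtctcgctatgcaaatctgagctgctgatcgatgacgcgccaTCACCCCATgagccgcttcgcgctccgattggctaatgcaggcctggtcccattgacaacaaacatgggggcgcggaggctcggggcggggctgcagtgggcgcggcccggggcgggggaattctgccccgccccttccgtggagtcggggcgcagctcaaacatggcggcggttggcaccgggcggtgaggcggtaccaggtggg
Idi1 (GRCr8 chr17:66547475-66547774, minus strand): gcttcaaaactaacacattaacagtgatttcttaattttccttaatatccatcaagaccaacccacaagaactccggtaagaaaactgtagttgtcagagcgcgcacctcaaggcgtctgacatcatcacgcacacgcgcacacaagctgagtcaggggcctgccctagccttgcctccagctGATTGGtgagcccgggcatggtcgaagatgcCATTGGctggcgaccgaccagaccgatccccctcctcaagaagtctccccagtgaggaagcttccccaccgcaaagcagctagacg
Of 18 sterol genes with a promoter in the RefSeq table, 1, Srebf2, held the sterol response motif, as did 0.588% of 11733 promoters of genes on the array. CCAAT boxes stood in 72.2% of the 18 and in 31.3% of the 476 promoters of genes called lower in the difference of differences, against 28.7% of all 11733. Among the 105 promoters of genes that faded from higher, 1 of the patterns set out above, the share was 43.8%. Other lists held CCAAT boxes too, in 67.3% of promoters for mitosis, 63.2% for the circadian clock and 48.7% for DNA replication. For fatty acid oxidation the figure was 30.6%. A high share of CCAAT boxes was therefore not particular to the sterol genes. The sterol list was chosen for its pathway, with earlier results of these data known, and a match describes letters only.

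Sqle scored 1.02, 0.81, 0.61, 1.15 and 1.09 in triadimefon livers at 14 days, against 0.85, 0.53, 0.40, 0.85 and 0.85 in controls. At 24 h Sqle scored 1.70, 1.59, 1.64, 1.67 and 1.14 in triadimefon livers, against 0.70, 0.76, 0.78, 0.71 and 0.68 in controls. All treated arrays exceeded all controls at 24 h, with array 5 the lowest of the treated ones, and the groups overlapped at 14 days. The difference was 0.24 ± 0.11 at 14 days and 0.82 ± 0.11 at 24 h, and the difference of differences was -0.58 ± 0.15 (limma adjusted p 0.00968). Srebf2 scored 1.06, 1.07, 1.03, 1.16 and 1.22 in triadimefon livers at 14 days, against 1.18, 1.17, 1.03, 1.13 and 1.27 in controls. At 24 h Srebf2 scored 1.28, 1.43, 1.32, 1.35 and 1.22 in triadimefon livers, against 1.15, 1.19, 1.09, 1.07 and 1.12 in controls. Its treated arrays were all above the controls at 24 h and mixed with them at 14 days, with a difference of differences of -0.25 ± 0.066 (limma adjusted p 0.0116).

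Idi1 had a difference of 0.26 ± 0.14 at 14 days and 0.89 ± 0.14 at 24 h, with a difference of differences of -0.64 ± 0.20 (limma adjusted p 0.0328). Msmo1 had -0.52 ± 0.16 (limma adjusted p 0.0303). Idi1 lost its call without any 1 of 9 arrays and Msmo1 without any 1 of 7, at adjusted p up to 0.0686 and 0.0644. For both genes these were arrays 1, 2 and 3 of the triadimefon livers at 24 h, array 5 of the 24-h controls, arrays 1 and 5 of the 14-day controls and array 3 of the triadimefon livers at 14 days, and for Idi1 also array 2 of the last group and array 4 of the 14-day controls. After quantile normalization both were called (adjusted p 0.0121 for Idi1 and 0.00563 for Msmo1). Another probe set for Idi1 gave -0.45 ± 0.19 in the deposited scores and was not called (limma adjusted p 0.10).

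Insig2 had another form. It was called at neither time, at -0.34 ± 0.13 at 14 days and 0.32 ± 0.13 at 24 h, and its difference of differences was -0.65 ± 0.19 (limma adjusted p 0.0185). Insig1, a close relative of Insig2, did not pass (-0.059 ± 0.25, adjusted p 0.9). Cyp51 was higher at 24 h by 0.47 ± 0.10 (adjusted p 0.00274), while its difference of differences of -0.29 ± 0.15 did not pass (limma adjusted p 0.172). After quantile normalization the Cyp51 value was -0.44 and passed (adjusted p 0.00785). Another probe set for Cyp51, of lower mean, gave -0.36 ± 0.0995 in the deposited scores and passed (limma adjusted p 0.0164).

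**Figure D2:**
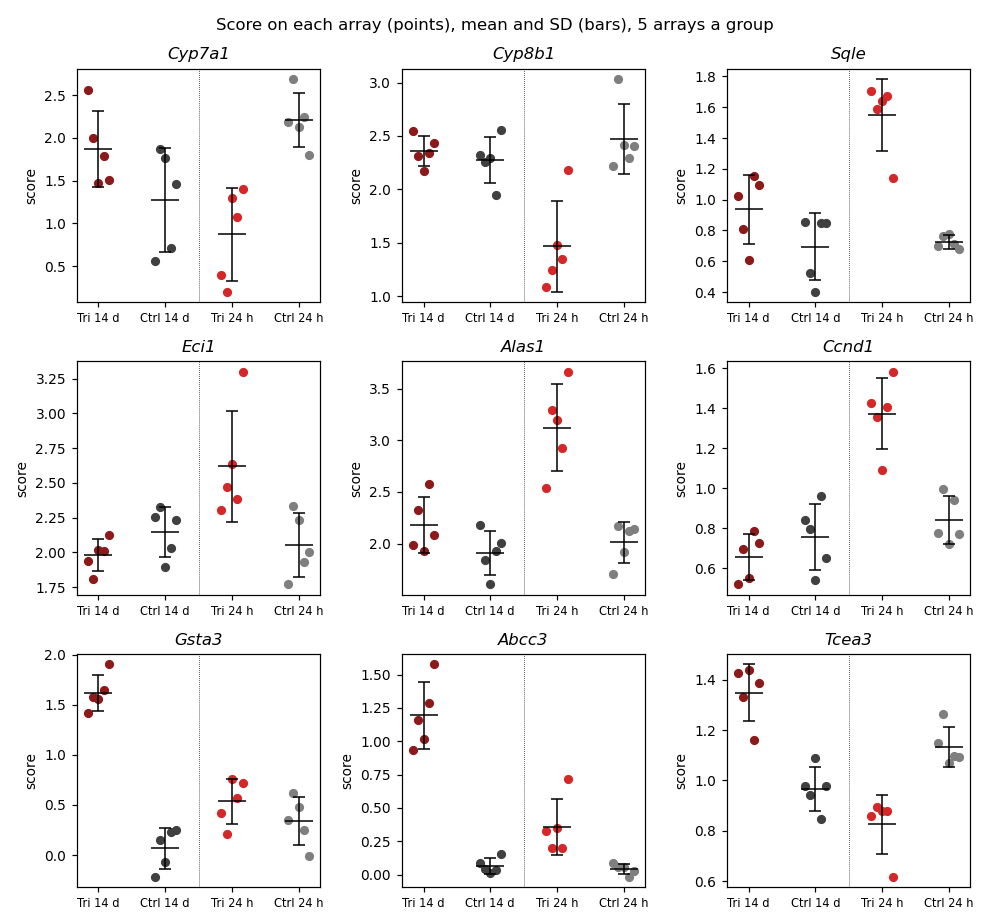
Scores of 9 genes on each of the 20 arrays, with points for arrays and bars for the mean and SD of 5 arrays a group, triadimefon livers left of their controls, and 14 days left of 24 h. Gsta3 and Abcc3 are highest in triadimefon livers at 14 days, Cyp7a1 and Cyp8b1 have their lowest mean and Sqle, Eci1, Alas1 and Ccnd1 their highest mean in triadimefon livers at 24 h, and Tcea3 is above its controls at 14 days and below them at 24 h.

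Some fatty acid oxidation genes were higher with triadimefon at 24 h. PPAR-alpha is the nuclear receptor that drives fat burning in liver. Of 43 measured genes of fatty acid oxidation and targets of PPAR-alpha, limma called 0 higher at 14 days. At 24 h it called 10 higher (23.3%, against 2.6% of all genes). The counts were 1 at 14 days and 18 at 24 h after quantile normalization. In the difference of differences 7 (16.3%, against 4.34% of all genes) were lower and 2 higher. After quantile normalization 15 (34.9%, against 6.39%) were lower and 1 higher. The list median was -0.0232 in the deposited scores, 0.026 without array 5 of the triadimefon livers at 24 h and -0.144 after quantile normalization, so its sign turned without that array. The 24-h count was 4 without array 5 of the triadimefon livers at 24 h, which left 6 lower differences of differences. Without array 2 of the 24-h controls 8 were lower and 0 higher.

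Eci1, which rearranges double bonds of unsaturated fatty acids in mitochondria, scored 1.94, 1.81, 2.02, 2.01 and 2.13 in triadimefon livers at 14 days, against 2.26, 2.33, 1.89, 2.03 and 2.24 in controls. At 24 h Eci1 scored 2.30, 2.47, 2.64, 2.38 and 3.30 in triadimefon livers, against 1.77, 2.33, 2.23, 1.93 and 2.00 in controls. Array 5 was far the highest treated array at 24 h, where the lowest treated array overlapped the controls, and the groups overlapped at 14 days. Its difference of differences was -0.73 ± 0.18 (limma adjusted p 0.00789) and passed without any single array. Cyp4a3, a fatty acid omega-hydroxylase, had the lowest value of all called genes, -0.89 ± 0.21 (limma adjusted p 0.00531). It differed by -0.34 ± 0.15 at 14 days (adjusted p 0.158) and by 0.55 ± 0.15 at 24 h (adjusted p 0.0157). The 24-h call of Cyp4a3 was lost without array 2 or array 5 of the triadimefon livers, at adjusted p up to 0.0653.

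The peroxisomal protein Hsdl2 had a difference of differences of -0.74 ± 0.15 (limma adjusted p 0.00168). Acot4, which splits acyl-CoA esters in peroxisomes, had -0.69 ± 0.18 (limma adjusted p 0.00988), and both faded from higher. The carnitine transporter Slc22a5 had -0.49 ± 0.11 (limma adjusted p 0.00296), and Crat, the carnitine acetyltransferase, chosen after its values were seen, -0.56 ± 0.12 (limma adjusted p 0.00224). Cpt1a, which controls the entry of long-chain fatty acids into mitochondria, was not called (-0.28 ± 0.22, limma adjusted p 0.398).

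Angptl4, Apoa4 and Plin2, genes of fat transport and storage, were lower with triadimefon at 14 days and not called at 24 h. Angptl4, a secreted inhibitor of lipoprotein lipase, scored 1.06, 0.98, 1.43, 1.13 and 1.07 in triadimefon livers at 14 days, against 2.07, 2.08, 1.81, 1.39 and 1.96 in controls. At 24 h Angptl4 scored 1.03, 1.99, 1.52, 1.69 and 2.10 in triadimefon livers, against 1.44, 1.84, 1.73, 1.42 and 1.37 in controls. Of the controls at 14 days, the lowest alone reached the treated range, while the 24-h groups were mixed. The difference was -0.73 ± 0.16 at 14 days (limma adjusted p 0.00502), and the difference of differences was -0.83 ± 0.23 (adjusted p 0.0149).

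Apoa4, a lipoprotein component, had a 14-day difference of -0.94 ± 0.19, and Plin2, the coat protein of fat droplets, -0.65 ± 0.15. Their differences of differences were -0.83 ± 0.27 (limma adjusted p 0.0354) and -0.67 ± 0.21 (limma adjusted p 0.0342). Apoa4 lost that call without any 1 of 8 arrays and Plin2 without any 1 of 6, at adjusted p up to 0.0832 and 0.0872. For both genes these included array 4 of the triadimefon livers and array 2 of the controls at 14 days, and arrays 2 and 5 of the triadimefon livers and array 3 of the controls at 24 h. After quantile normalization Apoa4 passed at 0.000131 and Plin2 at 0.000588. Cd36, a fatty acid uptake protein, built up, with 0.50 ± 0.11 at 14 days and a difference of differences of 0.56 ± 0.16 (limma adjusted p 0.0154). Of 26 measured fat droplet and lipoprotein genes, 5 (19.2%, against 4.34% of all genes) were lower and 2 higher, with 2 lower without array 3 of the 24-h controls and 8 (30.8%, against 6.39%) lower after quantile normalization.

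Thrsp and Srebf1, regulators of fat synthesis, were lower with triadimefon at 24 h and were not called at 14 days. Thrsp, a nuclear protein tied to fat synthesis, scored 3.42, 3.41, 3.51, 3.25 and 3.19 in triadimefon livers at 14 days, against 3.10, 3.99, 3.67, 2.68 and 3.03 in controls. At 24 h Thrsp scored 2.40, 2.52, 2.46, 2.59 and 1.65 in triadimefon livers, against 3.45, 4.38, 3.12, 3.41 and 3.24 in controls. The 24-h groups were apart, with treated array 5 the lowest and control array 2 the highest, and the 14-day groups overlapped. Its difference of differences was 1.26 ± 0.33 (limma adjusted p 0.0107), and 2 other probe sets for Thrsp gave 1.15 and 1.19.

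Srebf1, which encodes SREBP-1, the driver of fatty acid synthesis, had -0.85 ± 0.14 at 24 h and 0.71 ± 0.20 for the difference of differences (limma adjusted p 0.016). Lpin2, a phosphatidate phosphatase, had 0.68 ± 0.17 (limma adjusted p 0.00788) and was called at neither time alone. Scd2, a stearoyl-CoA desaturase, built up, with 0.32 ± 0.062 at 14 days and 0.45 ± 0.087 for the difference of differences (limma adjusted p 9.91e-04). Other, dimmer probe sets for Scd2 gave 0.081, 0.015 and 0.031 and were not called. Thrsp, Srebf1, Lpin2 and Scd2 were the called genes among 27 measured genes of fatty acid and triglyceride synthesis. That is 14.8% called higher against 11.3% of all genes, with 0 called lower (2 after quantile normalization). The list median was 0.144, and 0.0266 after quantile normalization. Fasn, the fatty acid synthase itself, was not called (-0.14 ± 0.29, adjusted p 0.77), and its score on array 5 of the triadimefon livers at 24 h, 1.21, was far below those of the other 4, from 2.20 to 2.35.

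Drug metabolism held genes that were higher at both times and genes that built up. The probe set shared by Cyp2b1 and Cyp2b2, P450s that CAR strongly switches on, was among the first. Cyp2b1 or Cyp2b2 scored 3.05, 3.86, 3.94, 3.77 and 4.03 in triadimefon livers at 14 days, against 1.40, 1.53, 0.99, 0.87 and 1.28 in controls. At 24 h Cyp2b1 or Cyp2b2 scored 3.95, 4.48, 4.31, 3.95 and 4.54 in triadimefon livers, against 1.28, 2.21, 1.77, 1.74 and 1.45 in controls. No treated array reached the control range at either time. Its difference was 2.52 ± 0.21 at 14 days and 2.56 ± 0.21 at 24 h. The difference of differences was -0.037 ± 0.30, with a 95% interval of -0.64 to 0.56 (limma adjusted p 0.949).

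Cyp3a23-3a1, a rat P450 that responds to PXR, had 0.80 ± 0.15 at 14 days, 0.71 ± 0.15 at 24 h and 0.086 ± 0.21 for the difference of differences, with an interval of -0.33 to 0.51 (limma adjusted p 0.813). Neither interval shows that the effect was equal at both times. Of 29 measured drug P450s and partner enzymes 0 were called in either direction by limma. Over all genes 11.3% were higher and 4.34% lower, so few calls would stand in a list of this size. At an unadjusted p of 0.05, 3 were higher and 1 lower. After quantile normalization 2 (6.9%, near the 7.21% of all genes) were called higher.

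Other drug-handling genes were higher at both times with no called difference between them. The multidrug exporter Abcb1a had 0.58 ± 0.092 at 14 days and 0.78 ± 0.092 at 24 h. Aldh1a1, which oxidises retinal and other aldehydes, had 1.75 ± 0.20 at 14 days and 1.17 ± 0.20 at 24 h. Ugt2b1, a glucuronosyltransferase, had 1.5 ± 0.19 at 14 days and 0.85 ± 0.19 at 24 h. Their differences of differences were -0.20 ± 0.13 for Abcb1a, 0.58 ± 0.29 for Aldh1a1 and 0.65 ± 0.26 for Ugt2b1, with limma adjusted p 0.287, 0.167 and 0.0913. Por, which feeds electrons to P450s, and Cyp3a9 were called higher at 24 h (0.92 ± 0.17 and 1.19 ± 0.23) and not at 14 days (0.45 ± 0.17 and 0.71 ± 0.23). The difference of differences did not pass for Por (-0.48 ± 0.24, adjusted p 0.17) or Cyp3a9 (-0.49 ± 0.33, adjusted p 0.313).

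Gsta3, Abcc3, Gstm3 and Mgst2, genes of conjugation and export, built up between the times. Gsta3, a glutathione transferase, scored 1.42, 1.57, 1.56, 1.65 and 1.90 in triadimefon livers at 14 days, against -0.22, 0.15, -0.072, 0.23 and 0.26 in controls. At 24 h Gsta3 scored 0.42, 0.21, 0.75, 0.57 and 0.72 in triadimefon livers, against 0.35, 0.62, 0.48, 0.25 and -0.013 in controls. The groups were far apart at 14 days and mixed at 24 h. Its difference was 1.55 ± 0.16 at 14 days and 0.20 ± 0.16 at 24 h, and the difference of differences was 1.35 ± 0.22 (limma adjusted p 1.87e-04).

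Abcc3, which exports glucuronides and bile salts to the blood, scored 0.93, 1.16, 1.02, 1.29 and 1.58 in triadimefon livers at 14 days, against 0.083, 0.039, 0.0096, 0.033 and 0.15 in controls. At 24 h Abcc3 scored 0.32, 0.20, 0.35, 0.20 and 0.71 in triadimefon livers, against 0.089, 0.055, 0.060, -0.018 and 0.023 in controls. Treated and control arrays were apart at both times, by more at 14 days. Abcc3 had 0.82 ± 0.14 for the difference of differences (limma adjusted p 2.05e-04). Its 24-h difference of 0.31 ± 0.096 lost its call without any 1 of 7 arrays (arrays 1, 3 and 5 of the treated and 2, 3, 4 and 5 of the control livers at 24 h), with adjusted p up to 0.135.

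Gstm3, a glutathione transferase, had 0.97 ± 0.092 at 14 days and 0.43 ± 0.092 at 24 h, with a difference of differences of 0.54 ± 0.13 (limma adjusted p 0.00594). Mgst2, a membrane-bound glutathione transferase, had 0.59 ± 0.13 (limma adjusted p 0.00298). Mgst3, of the same family, faded from lower: it had -0.015 ± 0.083 at 14 days and -0.49 ± 0.083 at 24 h, with 0.48 ± 0.12 for the difference of differences (limma adjusted p 0.00684). Of 35 measured drug conjugation enzymes 9 (25.7%, against 11.3% of all genes) were higher and 0 lower, with a median of 0.276, or 0.128 after quantile normalization. The count was 6 (17.1%, against 7.21%) after quantile normalization, 5 without array 2 of the 24-h controls, and 5 without array 1 of the triadimefon livers at 24 h. Hsd17b2, which inactivates oestradiol and testosterone, built up with 1.06 ± 0.29 (limma adjusted p 0.0131).

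Ces2c, a carboxylesterase, was higher at both times, by 1.5 ± 0.095 at 14 days and 1.05 ± 0.095 at 24 h. Its difference of differences of 0.45 ± 0.13 (limma adjusted p 0.0245) was not called without array 2 of the triadimefon livers at 14 days, without array 1 or 4 of those at 24 h, or after quantile normalization, at adjusted p up to 0.0615. Fmo1, a flavin monooxygenase that oxidises nitrogen and sulphur compounds, scored 1.78, 1.69, 1.79, 1.21 and 1.60 in triadimefon livers at 14 days, against 1.74, 1.27, 1.37, 1.5 and 1.73 in controls. At 24 h Fmo1 scored 0.57, 0.93, 0.99, 1.01 and 1.03 in triadimefon livers, against 1.85, 2.17, 1.89, 1.55 and 1.87 in controls. All 5 treated arrays were far below the controls at 24 h, and the groups were mixed at 14 days. Its difference of differences was 1.05 ± 0.16 (limma adjusted p 7.06e-05).

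Alas1, the rate-limiting enzyme of the haem synthesis that supplies P450s, scored 1.99, 2.32, 1.93, 2.58 and 2.08 in triadimefon livers at 14 days, against 2.18, 1.84, 1.61, 1.93 and 2.00 in controls. At 24 h Alas1 scored 2.53, 3.29, 3.2, 2.93 and 3.67 in triadimefon livers, against 1.71, 2.17, 1.92, 2.12 and 2.14 in controls. The 14-day groups overlapped and the 24-h groups did not. Alas1 had -0.84 ± 0.24 for the difference of differences (limma adjusted p 0.0188). Of 15 measured genes of haem synthesis and breakdown, 4 (26.7%, against 11.3% of all genes) were called higher and 1, Alas1, lower, and 2 and 1 after quantile normalization. Gclm, a known NRF2 target that helps make glutathione, built up with 0.41 ± 0.095 (limma adjusted p 0.00451). Gclm did not pass after quantile normalization (adjusted p 0.0759). Of 29 measured NRF2 targets 4 (13.8%, near the 11.3% of all genes) were higher and 0 lower, with 2 higher without array 2 of the 24-h controls, and 0 higher and 1 lower after quantile normalization.

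**Figure D3:**
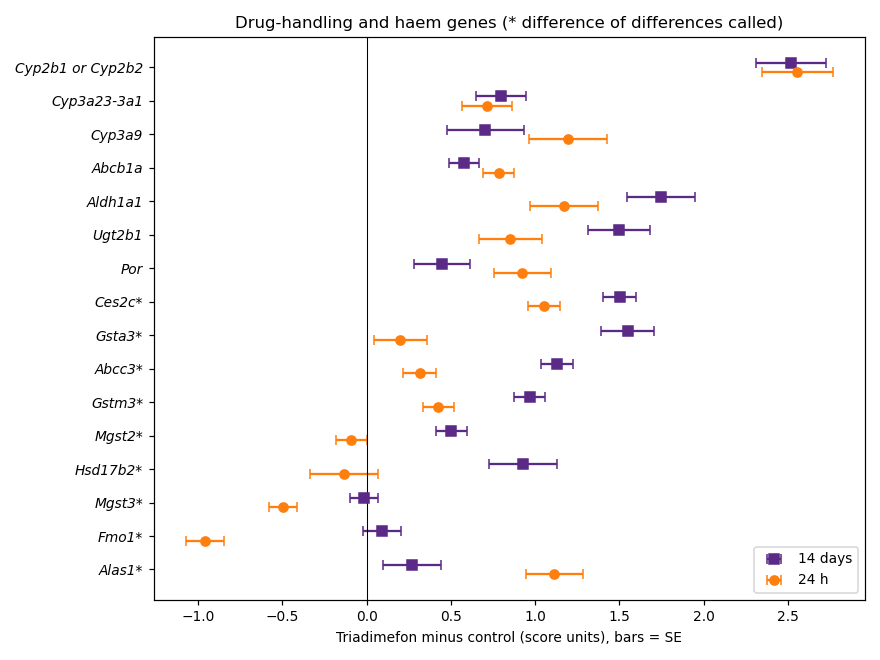
Triadimefon minus control in score units at 14 days (squares) and at 24 h (circles) for 16 drug-handling and haem genes, with bars for the SE and an asterisk where the difference of differences was called. Cyp2b1 or Cyp2b2 and Cyp3a23-3a1 have overlapping bars, Gsta3 and Abcc3 lie further right at 14 days, and Alas1 lies further right at 24 h.

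Ccnd1 and genes of DNA replication were higher with triadimefon at 24 h, and none of them was called higher at 14 days. Ccnd1, the cyclin that starts the cell cycle, scored 0.52, 0.70, 0.55, 0.78 and 0.72 in triadimefon livers at 14 days, against 0.84, 0.79, 0.54, 0.96 and 0.65 in controls. At 24 h Ccnd1 scored 1.43, 1.36, 1.09, 1.41 and 1.58 in triadimefon livers, against 0.78, 1.0, 0.72, 0.94 and 0.77 in controls. The groups were mixed at 14 days, and every treated array was above every control at 24 h. Its difference of differences was -0.64 ± 0.12 (limma adjusted p 9.21e-04), and 2 other probe sets for Ccnd1 gave -0.46 and -0.70.

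Gadd45b, a stress and growth signal that CAR activators raise in mouse liver, had 0.19 ± 0.11 at 14 days and 0.89 ± 0.11 at 24 h, with -0.70 ± 0.15 for the difference of differences (limma adjusted p 0.00253). Of 45 measured DNA replication genes, limma called 0 higher at 14 days and 16 (35.6%, against 2.6% of all genes) at 24 h. The 24-h count was 8 without array 1 of the triadimefon livers. In the difference of differences 11 (24.4%, against 4.34% of all genes) were lower and 0 higher, with a median of -0.0847. The count of lower calls was 5 without array 1 of the triadimefon livers at 24 h, 7 without array 2 of the 24-h controls and 10 after quantile normalization. Of 59 measured mitosis genes 11 (18.6%, against 4.34% of all genes) were lower and 0 higher, and 8 (13.6%, against 6.39%) were lower after quantile normalization. The count of 11 became 1 without array 2 of the 14-day controls, 2 without array 1 of the triadimefon livers at 24 h and 3 without array 2 of the 24-h controls. It became 27 without array 2 of the triadimefon livers at 24 h. Mki67, the proliferation marker, was not called (-0.24 ± 0.14, adjusted p 0.244).

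Cdt1, which loads the replicative helicase, is shown because an E2F motif lies just after its annotated start, in capitals (TTTCCCGC or TTTGGCGC, either strand) in the RefSeq promoter, 5′ to 3′.
Cdt1 (GRCr8 chr19:67528999-67529298, plus strand): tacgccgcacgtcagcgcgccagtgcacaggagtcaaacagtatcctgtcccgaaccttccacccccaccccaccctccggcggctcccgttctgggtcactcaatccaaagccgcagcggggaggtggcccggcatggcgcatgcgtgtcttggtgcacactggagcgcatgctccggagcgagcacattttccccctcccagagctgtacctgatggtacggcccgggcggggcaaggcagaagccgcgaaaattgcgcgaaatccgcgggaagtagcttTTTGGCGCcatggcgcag
E2F is the factor family that switches on S-phase genes. The motif stood in 35.9% of the 39 promoters of the replication list, and in 2.94% of the 476 promoters of genes called lower, against 2.58% of all 11733. The replication list was chosen for its function, with earlier results of these data known. Among the 105 promoters of genes that faded from higher it was 7.62%.

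Cdt1 scored -0.21, -0.21, -0.23, -0.21 and -0.19 in triadimefon livers at 14 days, against -0.14, -0.17, -0.24, -0.19 and -0.13 in controls. At 24 h Cdt1 scored 0.30, 0.0095, 0.091, 0.069 and -0.082 in triadimefon livers, against -0.24, -0.18, -0.21, -0.23 and -0.20 in controls. The treated arrays spread widely at 24 h, all above the controls, with array 1 the highest. Cdt1 had -0.32 ± 0.066 for the difference of differences (limma adjusted p 0.00173) and passed without any single array. Rfc2, a subunit of the clamp loader, had -0.20 ± 0.061 (limma adjusted p 0.0242), and Mcm5, a subunit of the helicase, -0.22 ± 0.066 (limma adjusted p 0.0261). Both lost their call without array 1 of the triadimefon livers at 24 h, at adjusted p up to 0.06 for Rfc2 and 0.0691 for Mcm5 over all such arrays. Rfc2 also lost it without array 1 of the triadimefon livers at 14 days, array 2 of the 14-day controls or array 3 of the 24-h controls. Mcm5 lost it too without array 4 of the 14-day controls or array 2 of the 24-h controls.

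Stress genes were called in both directions. Of 28 measured heat shock genes 3 (10.7%, against 4.34% of all genes) were lower and 0 higher, with 5 lower without array 2 of the 24-h controls and 12 (42.9%, against 6.39%) lower after quantile normalization. They were Chordc1, a partner of the chaperone HSP90 (-0.35 ± 0.074, limma adjusted p 0.00233), Hsph1, which recharges HSP70 (-0.48 ± 0.14, adjusted p 0.0241), and Dnaja4, an HSP70 partner (-0.22 ± 0.049, adjusted p 0.00268). Hsph1 was not called without array 2 of the 14-day controls (adjusted p 0.0506). Of 31 measured genes of endoplasmic reticulum folding 6 (19.4%, against 11.3% of all genes) were higher and 0 lower, and 5 and 1 after quantile normalization. Erp44, which retains secretory proteins, had -0.24 ± 0.054 at 24 h and 0.32 ± 0.076 for the difference of differences (limma adjusted p 0.00623). Hspa5, the main chaperone of that compartment, and Creld2, another gene of the unfolded protein response, were not called (-0.014 ± 0.18 and 0.011 ± 0.14, adjusted p 0.969 and 0.968).

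Nupr1, a stress-induced chromatin protein, faded from lower with -0.72 ± 0.14 at 24 h and 0.94 ± 0.20 for the difference of differences (limma adjusted p 0.002). Asns, the asparagine synthetase, built up with 0.31 ± 0.052 at 14 days and 0.42 ± 0.074 for the difference of differences (limma adjusted p 4.34e-04). These were the 2 called genes (6.9%, below the 11.3% of all genes) of 29 measured genes of the integrated stress and amino acid response. The fasting-responsive gene Depp1 had 0.98 ± 0.33 (limma adjusted p 0.0459). It was not called after quantile normalization (adjusted p 0.0862) nor in 12 of 20 repeats without 1 array, among them the one without array 2 of the 24-h controls, with adjusted p up to 0.124.

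Some genes changed sides. Tcea3, a transcription elongation factor, scored 1.42, 1.33, 1.44, 1.16 and 1.39 in triadimefon livers at 14 days, against 0.98, 0.94, 1.09, 0.85 and 0.98 in controls. At 24 h Tcea3 scored 0.86, 0.90, 0.88, 0.88 and 0.62 in triadimefon livers, against 1.15, 1.26, 1.07, 1.10 and 1.09 in controls. All treated arrays were above all controls at 14 days and below all of them at 24 h. The difference was 0.38 ± 0.064 (limma adjusted p 2.04e-04) at 14 days and -0.31 ± 0.064 (adjusted p 0.00174) at 24 h, with 0.69 ± 0.090 for the difference of differences (adjusted p 5.58e-06). These 3 calls held without any single array and after quantile normalization. Cd14, the lipopolysaccharide co-receptor, also turned, with 0.43 ± 0.10 at 14 days, -0.34 ± 0.10 at 24 h and 0.78 ± 0.14 for the difference of differences (limma adjusted p 5.82e-04). At 24 h Cd14 did not pass after quantile normalization (adjusted p 0.157), nor without array 4 of the triadimefon livers or array 2 or 5 of the controls at 24 h, at adjusted p up to 0.13.

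Nr1d1 and Nr1d2, repressors of the circadian clock, built up at 14 days. Nr1d2, which encodes REV-ERB-beta, scored 1.08, 0.95, 0.50, 1.41 and 1.09 in triadimefon livers at 14 days, against 0.12, -0.061, 0.051, 0.17 and 0.064 in controls. At 24 h Nr1d2 scored 0.28, 0.52, 0.18, 0.78 and 0.68 in triadimefon livers, against 0.21, 0.19, 0.30, 0.12 and 0.22 in controls. The groups were apart at 14 days, and some treated arrays lay within the controls at 24 h. Its difference of differences was 0.66 ± 0.15 (limma adjusted p 0.00328). The circadian clock list also holds cold-inducible genes. Of its 22 measured genes 4 (18.2%, against 11.3% of all genes) were higher and 0 lower. The count was also 4 (18.2%, against 7.21%) after quantile normalization. Besides Nr1d2 they were Nr1d1, which encodes REV-ERB-alpha (0.40 ± 0.12, limma adjusted p 0.0263), and 2 cold-inducible RNA-binding proteins. These were Rbm3 (0.48 ± 0.077, limma adjusted p 1.19e-04) and Cirbp (0.21 ± 0.043, limma adjusted p 0.00197). Against control at 14 days, 5 of the 22 (22.7%, against 5.49% of all genes) were higher and 2 (9.09%, against 2.74%) lower. After quantile normalization 5 were higher and 5 lower at 14 days. Nr1d1 was not called without array 4 or 5 of the triadimefon livers at 14 days or array 1 or 3 of those at 24 h, at adjusted p up to 0.0599. Whether livers of all groups were taken at the same clock time is not given in the sources used here, and its part in these values was not tested.

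Some genes of amino acid breakdown were lower with triadimefon at 24 h. Of 53 measured urea cycle and amino acid breakdown genes, 2 (3.77%, against 2.74% of all genes) were called lower at 14 days. At 24 h 17 (32.1%, against 8.31%) were lower, or 7 without array 2 of the controls. After quantile normalization 12 (22.6%) were lower at 14 days and 15 (28.3%) at 24 h, against 766 and 901 of all 14218 genes. On that scaling the share of lower calls was therefore above that of all genes at both times. In the difference of differences 9 (17%, against 11.3% of all genes) were higher and 0 lower. The list median was 0.243, and 0.0937 after quantile normalization. The count of higher calls was 5 without array 2 of the 24-h controls, and 11 (20.8%, against 7.21%) were higher and 2 lower after quantile normalization. Csad, which makes the taurine precursor hypotaurine, had 0.19 ± 0.15 at 14 days and -0.78 ± 0.15 at 24 h, with 0.97 ± 0.21 for the difference of differences (limma adjusted p 0.00275). Gpt2, the mitochondrial alanine transaminase, had 0.68 ± 0.18 (limma adjusted p 0.0102).

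Slc37a4, the glucose-6-phosphate transporter, had a difference of differences of 0.50 ± 0.13 (limma adjusted p 0.0125). The kinases Pdk1 and Pdk2, which switch off pyruvate dehydrogenase, had 0.40 ± 0.11 and 0.47 ± 0.12 (limma adjusted p 0.0123 and 0.00982). Pklr, the liver pyruvate kinase, had 0.64 ± 0.20 (limma adjusted p 0.03). After quantile normalization Pklr did not pass (adjusted p 0.0744), nor did it without array 3 of the triadimefon or array 4 or 5 of the control livers at 14 days, or array 5 of the triadimefon or array 2 of the control livers at 24 h. Of 31 measured genes of glycolysis, gluconeogenesis and glycogen 5 (16.1%, against 11.3% of all genes) were higher and 1 lower, with 3 and 3 after quantile normalization and 3 and 1 without array 2 of the 24-h controls. Hsd11b1, which regenerates active glucocorticoid, had -0.82 ± 0.15 at 24 h and 0.93 ± 0.22 for the difference of differences (limma adjusted p 0.00519). Of 53 measured respiratory chain subunits 5 (9.43%, below the 11.3% of all genes) were higher and 0 lower. After quantile normalization 2 were higher and 1 lower, and 0 were higher without array 2 of the 24-h controls.

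Isg15, Ifit1 and Mx2, genes that interferon induces, were higher with triadimefon at 24 h and not called at 14 days. Isg15, a ubiquitin-like protein, scored 0.23, 0.42, 0.24, 0.15 and 0.23 in triadimefon livers at 14 days, against 0.42, 0.59, 0.42, 0.46 and 0.57 in controls. At 24 h Isg15 scored 1.11, 1.06, 1.03, 0.62 and 0.97 in triadimefon livers, against 0.48, 0.72, 0.65, 0.40 and 0.93 in controls. At 14 days every treated array was below every control, the highest treated just below the lowest controls, and at 24 h most treated arrays were above the controls, with overlap. The difference of differences was -0.56 ± 0.13 (limma adjusted p 0.00545). The 24-h call of Isg15 was lost without array 1, 2 or 3 of the treated or array 1 or 4 of the control livers, at adjusted p up to 0.0956. Ifit1, which binds viral RNA, had -0.46 ± 0.13 (limma adjusted p 0.0203), and Mx2, an antiviral GTPase, -0.45 ± 0.14 (limma adjusted p 0.0281). Mx2 was not called without array 4 of the triadimefon livers or array 2 of the controls at 14 days, or without array 1 of the triadimefon livers at 24 h, at adjusted p up to 0.0626. Of 38 measured interferon and antigen presentation genes 3 (7.89%, against 2.6% of all genes) were called higher at 24 h. That 24-h count was 1 without array 4 of the 24-h controls. In the difference of differences 3 (7.89%, against 4.34% of all genes) were lower and 0 higher, with 2 to 7 lower when single arrays were left out and 8 (21.1%, against 6.39%) after quantile normalization.

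**Figure D4:**
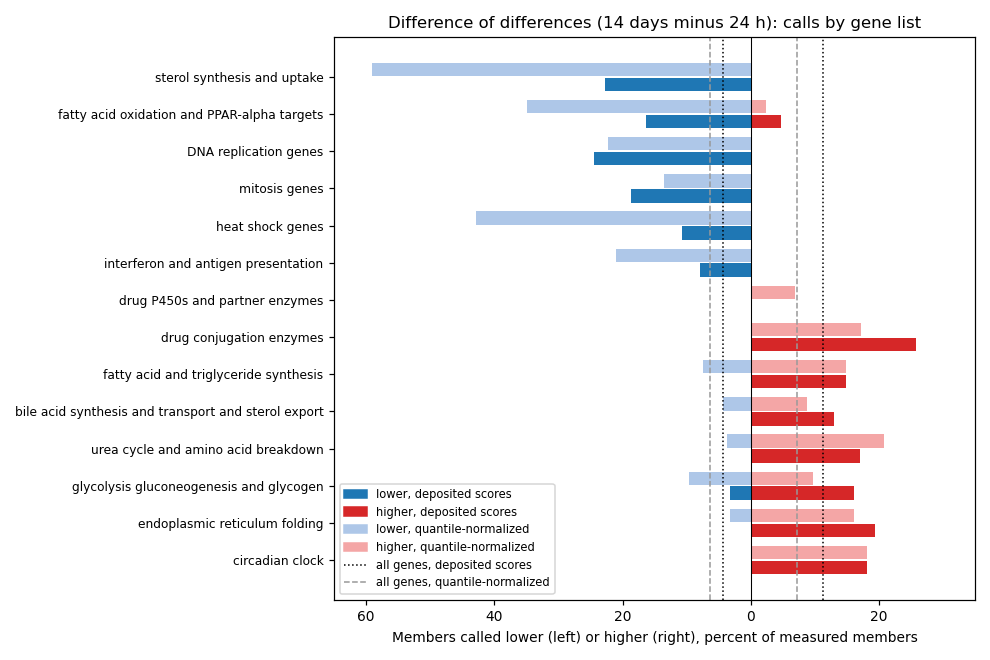
Percent of the measured members of 14 gene lists called lower (bars to the left) or higher (bars to the right) in the difference of differences, in dark colours for the deposited scores and in pale colours after quantile normalization. Dotted lines mark the shares over all genes in the deposited scores, 4.34% lower and 11.3% higher, and grey dashed lines those after quantile normalization, 6.39% lower and 7.21% higher. The sterol, replication, mitosis, heat shock and interferon bars point left only.

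Among markers of other liver cells, Epcam was higher with triadimefon at 14 days and not called at 24 h. Epcam, an adhesion protein of bile duct and progenitor cells, scored 1.0, 1.05, 0.92, 0.93 and 1.13 in triadimefon livers at 14 days, against 0.51, 0.34, 0.42, 0.54 and 0.51 in controls. At 24 h Epcam scored 0.51, 0.53, 0.53, 0.41 and 0.54 in triadimefon livers, against 0.51, 0.80, 0.63, 0.67 and 0.57 in controls. The groups were apart at 14 days and overlapped at 24 h, and the difference of differences was 0.67 ± 0.085 (limma adjusted p 3.68e-06). The duct keratins Krt19 and Krt7 were near the array median, Krt19 between -0.13 and 0.032 and Krt7 between -0.16 and -0.014 on the 20 arrays. Over the 20 measured bile duct and progenitor markers, the mean score ran from 0.491 to 0.520 in triadimefon livers and from 0.430 to 0.532 in controls at 14 days. At 24 h it ran from 0.363 to 0.470 in triadimefon livers and from 0.406 to 0.519 in controls. Of these 20 markers 5 (25%, against 11.3% of all genes) were called higher and 0 lower in the difference of differences. The count was 2 higher both after quantile normalization and without array 2 of the 24-h controls. Against control at 14 days 1 marker (5%, near the 5.49% of all genes) was called higher. At 24 h 2 (10%, near the 8.31% of all genes) were called lower.

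Liver endothelial markers gave 6 higher calls of 21 (28.6%, against 11.3% of all genes), with 2 without array 2 of the 24-h controls. After quantile normalization 2 were higher and 2 lower (9.52% each, near the 7.21% and 6.39% of all genes). Their mean score ran from 0.721 to 0.782 in triadimefon livers and from 0.676 to 0.749 in controls at 14 days. At 24 h that mean ran from 0.675 to 0.765 in triadimefon livers and from 0.703 to 0.881 in controls. Pecam1, an adhesion protein of vessel walls, had a difference of differences of 0.21 ± 0.046 (limma adjusted p 0.00296). Of 18 measured Kupffer cell and macrophage markers 1 (5.56%, below the 11.3% of all genes), Cd14, was called higher. Clec4f, a defining receptor of Kupffer cells, was not called (0.10 ± 0.18, limma adjusted p 0.733). Neutrophil and mast cell markers gave 3 lower calls of 15 (20%, against 4.34% of all genes) and 0 after quantile normalization, at mean scores from -0.197 to -0.098 on the 20 arrays. Of 24 measured lymphocyte and NK cell markers 2 (8.33%, against 4.34% of all genes) were lower, and 0 without array 2 of the 24-h controls. Of 24 measured stellate cell and matrix markers 1 was higher and 1 lower (4.17% each, against 11.3% and 4.34% of all genes). Erythroid and platelet markers gave 0 limma calls of 14, with 0 higher and 2 lower at an unadjusted p of 0.05. The part of these markers in the results on liver genes was not tested.

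The series also holds livers of rats given myclobutanil, another triazole, stated at 225 mg/kg/day for the series. The doses differ, so the compounds are set side by side by their change between times, livers at 14 days minus livers at 24 h. The controls cancel in the difference between the compounds, while the change given for a single compound has no control taken off. The change between times was called higher with triadimefon than with myclobutanil for 21 genes (0.148%) and lower for 22 (0.155%), and for 120 and 69 after quantile normalization. In probe sets 60 were called, with 18 to 105 when single arrays were left out, the lowest without array 5 of the myclobutanil livers at 24 h and the highest without array 1 of the triadimefon livers at 24 h. Mx1, Irf7, Oas1a, Rfc4, Rfc5, Rrm1, Rpa2, Psat1 and Crat were chosen here after their values were seen. Of these, Crat alone was called in the difference of differences against controls.

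Interferon-induced genes changed differently between the times with the 2 compounds. Of the 38 interferon and antigen presentation genes 5 were lower and 0 higher with triadimefon than with myclobutanil. Mx2 had a change of -0.62 ± 0.098 with triadimefon and 0.14 ± 0.098 with myclobutanil, a difference of -0.76 ± 0.14 (SE, limma adjusted p 0.00649). Irf7, a transcription factor of the interferon response, had -0.55 ± 0.096 with triadimefon and 0.17 ± 0.096 with myclobutanil, a difference of -0.73 ± 0.14 (limma adjusted p 0.00825). Mx1, Isg15 and Oas1a, which makes the activator of RNase L, had differences of -0.51, -0.66 and -0.78 (limma adjusted p 0.00532, 0.0208 and 0.0445).

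Replication genes differed the other way. Rfc4, of the clamp loader, had a change of -0.083 ± 0.044 with triadimefon and -0.44 ± 0.044 with myclobutanil, a difference of 0.35 ± 0.062 (limma adjusted p 0.00575). Rrm1, a subunit of ribonucleotide reductase, differed by 0.35 ± 0.066 (limma adjusted p 0.0118), Rfc5 by 0.25 ± 0.050 (adjusted p 0.02) and the single-strand binding protein Rpa2 by 0.25 ± 0.057 (adjusted p 0.0422). These were the 4 higher calls among 45 measured replication genes, with 0 lower. Ces2c had a change of 0.33 ± 0.095 with triadimefon and -0.40 ± 0.095 with myclobutanil, a difference of 0.72 ± 0.13 (limma adjusted p 0.00825). Psat1, of serine synthesis, had 0.27 ± 0.072 with triadimefon and -0.29 ± 0.072 with myclobutanil, a difference of 0.56 ± 0.10 (limma adjusted p 0.00649). Crat differed by -0.55 ± 0.12 (limma adjusted p 0.0336), and Cyp4a3 by -0.89 ± 0.21, which did not pass (adjusted p 0.0581, and 0.0383 after quantile normalization).

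With 1 array left out at a time, Mx2, Mx1, Irf7, Rfc4, Rrm1, Ces2c and Psat1 were called in all 20 repeats. Isg15 and Rfc5 each lost the call without array 2 of the triadimefon or array 5 of the myclobutanil livers at 24 h, at adjusted p up to 0.0575 and 0.052. Crat, Oas1a and Rpa2 lost it in 12, 13 and 14 repeats, at adjusted p up to 0.0729, 0.106 and 0.106. For Cyp7a1 the difference between the compounds was -0.016 ± 0.38 (limma adjusted p 0.991), and for the probe set of Cyp2b1 or Cyp2b2 it was -0.084 ± 0.30 (adjusted p 0.933).

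**Figure D5:**
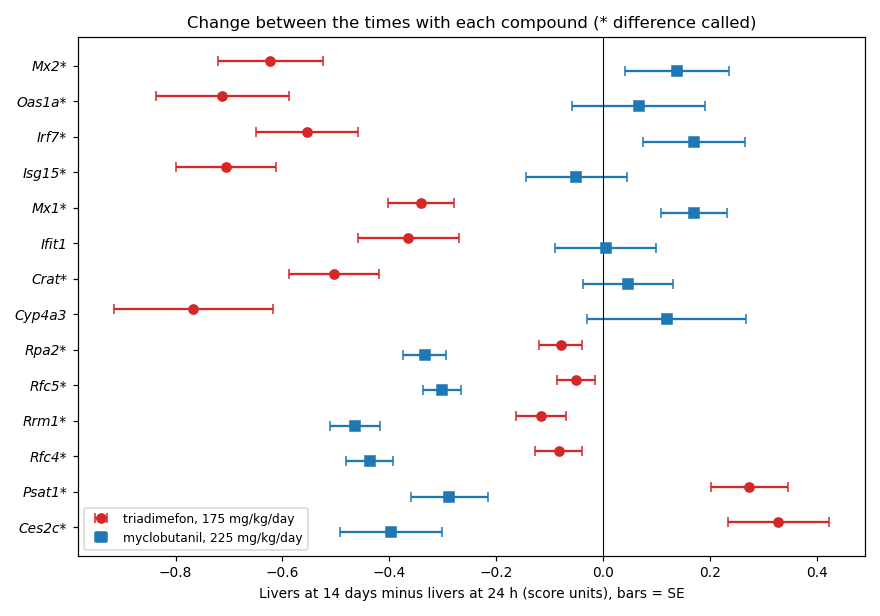
Livers at 14 days minus livers at 24 h in score units for 14 genes, with triadimefon as circles and myclobutanil as squares, bars for the SE and an asterisk where the difference between the compounds was called. Mx2, Irf7 and Mx1 are lower, and Rfc4, Rrm1, Psat1 and Ces2c are higher, with triadimefon than with myclobutanil.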

How the data were processed

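Gene expression in rat liver was read on Affymetrix rat genome arrays. The authors deposited 1 table of scores for 31099 probe sets on 45 arrays, with values on a log-type scale centred near 0. Its log base, background correction, probe summary and normalization are not given in the sources used here. Columns were matched to samples by title, and samples were grouped by title into 9 groups of 5 arrays.

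The 57 control probe sets were left out. limma 3.58.1 in R 4.3.3 fitted 1 mean per group over the 45 arrays to 31042 probe sets, with moderated variances and Benjamini-Hochberg adjustment over all of them for each contrast. A call is an adjusted p below 0.05. Probe sets were named from the platform annotation: 20826 had 1 gene symbol, 436 several and 9780 none. A gene was read from its single-gene probe set of highest mean over the 45 arrays, and 1193 of 1356 entries of the gene lists were matched. Another probe set was not called in the difference of differences for Dnaja4, Eci1, Erp44, Idi1, Lpin2, Mx2, Nr5a2, Pdk1, Plin2, Scd2 and Srebf2. All other probe sets were called in the same direction for Ccnd1, Cirbp, Gpt2, Hsdl2, Hsph1, Insig2, Nr1d2, Pdk2, Pklr, Srebf1 and Thrsp.

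The genes named are the 10 highest and 10 lowest differences of differences among called genes, part of the largest in each pattern and list, part of a panel of liver genes, and those said to be chosen after their values were seen. The members and lists were chosen with earlier results of these data known. Promoter sequences and their coordinates are RefSeq's, on build GRCr8.

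Alternatives were quantile normalization, a common median, array weights, another variance model, a filter on dim probe sets, stricter thresholds, only the groups compared, replicate number as a block, and each array left out in turn. Counts, shares and medians of list members under quantile normalization and without single arrays were added after seeing the data. On simulated differences in the difference of differences, over 31042 probe sets, the test recovered 45 of 64 of size 0.2, 62 of 68 of size 0.5 and 68 of 68 of size 1, with 10 calls among probe sets given no change. The simulation drew independent normal noise with each probe set's own spread within groups. It held no array-wide differences, outlying arrays or shared rats, so its calls do not measure the rate of false calls in these data. The number of arrays limits the precision. The labels conflict on whether arrays of a group came from separate rats.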

Additional observations from a re-analysis of the deposited data

Results flagged for a closer look

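Of 344 groups of 5 arrays examined (4 groups for each of 86 genes), 29 held an array far from the other 4, and chance alone gives such a value in about 5% of groups. Array 5 of the triadimefon livers at 24 h held 8 of them and array 2 of the 24-h controls 7. On array 5, Fasn scored 1.21 (the other 4 arrays 2.20 to 2.35), Thrsp 1.65 (2.40 to 2.59), Sqle 1.14 (1.59 to 1.70), Idi1 2.19 (2.79 to 3.02), Msmo1 2.56 (3.14 to 3.27), Depp1 0.90 (1.31 to 1.45) and Tcea3 0.62 (0.86 to 0.90), all low. Por scored 3.06 there, against 1.79 to 2.15 on the other 4. On array 2 of the 24-h controls all 7 values were high: Thrsp 4.38 (3.12 to 3.45), Srebf1 2.75 (2.14 to 2.24), Insig2 3.46 (2.76 to 2.88), Msmo1 2.60 (2.13 to 2.25), Cyp8b1 3.03 (2.21 to 2.41), Plin2 3.44 (2.64 to 2.85) and Cyp3a23-3a1 3.93 (3.32 to 3.47). The part of these arrays is measured by the counts without them.

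The other 14 were spread over arrays. In triadimefon livers at 14 days they were Cyp2b1 or Cyp2b2 at 3.05 on array 1 (3.77 to 4.03 on the others), Abcb1a at 0.78 (0.27 to 0.41) and Mgst3 at 2.33 (2.56 to 2.64) on array 4, and Nr5a2 at 1.32 on array 5 (1.18 to 1.20). In the 14-day controls they were Por at 1.43 (0.98 to 1.05) and Rpa2 at -0.01 on array 2, Rfc5 at 0.38 on array 3 (0.45 to 0.47) and Psat1 at -0.17 on array 1. In triadimefon livers at 24 h they were Fmo1 at 0.57 (0.93 to 1.03), Hspa5 at 2.92 (3.14 to 3.18) and Rfc2 at 0.67 (0.57 to 0.60) on array 1, and Hsd17b2 at 1.79 (1.43 to 1.52), Isg15 at 0.62 (0.97 to 1.11) and Epcam at 0.41 (0.51 to 0.54) on array 4.

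The triadimefon effect differed between 14 days and 24 h by limma for 3931 probe sets, and the report gives the genes. The change between times also differed between the compounds, triadimefon minus myclobutanil, for 12 of the genes named. The differences were 0.72 for Ces2c, 0.56 for Psat1, 0.35 for Rfc4, 0.35 for Rrm1, 0.25 for Rfc5, 0.25 for Rpa2, -0.51 for Mx1, -0.55 for Crat, -0.66 for Isg15, -0.73 for Irf7, -0.76 for Mx2 and -0.78 for Oas1a.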

How the results depend on the processing

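Counts and the balance of directions both depended on settings. The comparison of compounds held 26 higher and 34 lower probe sets, 172 and 105 after quantile normalization and 51 and 23 at a common median. At an adjusted p of 0.01 the difference of differences held 1249 probe sets, the effect 600 at 14 days and 944 at 24 h, the triadimefon change 885, the controls 0, the comparison of compounds 14, and 22 genes turned, 168 built, 223 faded and 360 fell in neither class. With a size of at least log2 of 1.5 the same counts were 68, 44, 70, 49, 1, 8, 3, 16, 28 and 2. With only the groups compared in the fit, the 24-h effect held 491 probe sets of the 2478 with all groups, the controls 0, the comparison of compounds 33, and 97 genes turned. The controls held 114 after quantile normalization, 360 at a common median, 25 with array weights and 46 with the other variance model. The comparison of compounds held 277 after quantile normalization and 187 with array weights, and the triadimefon change 3867 with array weights.

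With 1 array left out, the difference of differences held 2253 to 5079 probe sets, the effect 1014 to 2185 at 14 days and 1159 to 3233 at 24 h, the triadimefon change 1555 to 2327, the controls 0 to 1170 and the comparison of compounds 18 to 105. Turned genes numbered 53 to 198, built 284 to 666, faded 280 to 1124 and neither 402 to 975. The 14-day effect was lowest without array 2 of the 14-day controls, and held 1164 without array 4 of the triadimefon livers at 14 days. The 24-h effect was lowest without array 2 of the 24-h controls, and held 1484 without array 1 of the triadimefon livers at 24 h, which also gave the lowest triadimefon change.

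Deviations of same-numbered arrays correlated with a median of 0.0331 over 30 pairs of arrays (-0.217 to 0.344). For other numbers the median was -0.0195 (-0.427 to 0.364). The ranges overlap widely, and deviations sum to 0 within a group, so these values cannot settle whether replicate numbers pair the arrays. With the number as a block, 4002 probe sets were called in the difference of differences.

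Among the genes named, 0 of the 62 called changed the sign of the difference of differences in any setting or repeat. Of the 24 not called, 8 did, with sizes up to 0.143 in the deposited scores. Of the 62, 57 were called after quantile normalization, 50 in all repeats without 1 array, and 48 in both. With only the groups compared in the fit, 13 of the 62 lost their call. At an adjusted p of 0.01, 24 lost it, and with a size of at least log2 of 1.5, 30 did. Among 305 probe sets with a mean score over 3, arrays of a group had an SD of 0.242 in the deposited scores and 0.13 after quantile normalization. The scale's unknown base allows no folds.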

Other observations

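Livers taken 6 h after triadimefon, against their own controls, show which of these genes differed earlier. By limma, 229 of 31042 probe sets were higher and 55 lower at 6 h (SE, n = 5 a group below). The 20 arrays of the main comparison share 1 array name ending, while the endings of the 6-h arrays were mixed and went partly with treatment. The part of these endings in the 6-h values was not tested, and the 6-h values were not repeated under other settings. The drug-metabolism values at 6 h were 2.38 ± 0.21 for Cyp2b1 or Cyp2b2 (limma adjusted p 1.8e-09), 0.44 ± 0.092 for Abcb1a (limma adjusted p 0.00823) and 0.66 ± 0.17 for Por (limma adjusted p 0.042). Alas1, the haem gene, was higher by 0.81 ± 0.17 (limma adjusted p 0.00861). Gclm, which was higher at 14 days, was lower at 6 h, at -0.48 ± 0.067 (limma adjusted p 3.04e-05). Gsta3 and Abcc3, which also built up by 14 days, were not called at 6 h, with -0.07 ± 0.16 for Gsta3 (limma adjusted p 0.93) and 0.066 ± 0.096 for Abcc3 (limma adjusted p 0.876).

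Lipid genes differed at 6 h as well. Cyp8b1 was lower, at -0.70 ± 0.15 (limma adjusted p 0.0103), and Cyp4a3, which was higher at 24 h, was lower at 6 h, at -0.63 ± 0.15 (limma adjusted p 0.0219). Insig2 was higher, at 0.56 ± 0.13 (limma adjusted p 0.0224). Cyp7a1 and Sqle were not called at 6 h, with -0.20 ± 0.27 for Cyp7a1 (limma adjusted p 0.868) and 0.26 ± 0.11 for Sqle (limma adjusted p 0.308).

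Stress genes and cold-inducible genes were among those called at 6 h. The values were 0.75 ± 0.096 for Creld2 (limma adjusted p 7.93e-06), 0.62 ± 0.10 for Hsph1 (limma adjusted p 0.000474), 0.28 ± 0.052 for Chordc1 (limma adjusted p 0.00213) and 0.48 ± 0.11 for Gadd45b (limma adjusted p 0.0152), all higher. The cold-inducible genes were lower, with -0.34 ± 0.054 for Rbm3 (limma adjusted p 0.000362) and -0.19 ± 0.031 for Cirbp (limma adjusted p 0.000369). Ccnd1 was not called, at -0.091 ± 0.086 (limma adjusted p 0.776).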
